A study of Mus musculus with 8 samples.

Results

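The voltage-gated sodium and calcium channels of the hippocampus are described here by 33 genes, chosen by symbol as pore-forming and auxiliary subunits of these channels and the proteins that anchor or modulate them. They form 9 groups by role: 5 pore-forming alpha subunits and 3 beta subunits of the sodium channels, 3 genes of the sodium leak complex, 5 alpha1 subunits of the high-voltage-activated and 3 of the T-type calcium channels, 4 calcium channel beta subunits, 4 alpha2delta subunits, 4 fibroblast growth factor homologous factors and 2 scaffold genes of the axon initial segment. All 33 were found among the 40659 genes of the count table, and all 33 were among the 17252 genes that passed the filter on low counts. Their lowest count in any library was 27, for Scn9a.

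The study asked what overexpression of the microRNA miR-708-5p does in the mouse hippocampus. Polyadenylated RNA was sequenced from the hippocampus of 8 wild-type male C57BL/6JRj mice, which received a stereotactic injection into the dorsal and ventral hippocampus at postnatal week 7 to 8 and were sampled at postnatal week 12 to 13. The 4 hpCTL mice received a recombinant adeno-associated virus (rAAV) with a control hairpin, and the 4 hp708 mice received an rAAV whose hairpin gives rise to miR-708-5p. The hairpin is expressed from the human synapsin (hSYN) promoter, which is active in neurons, while the RNA came from whole hippocampal tissue that also holds glia and uninfected cells. Fewer cells of a type and less RNA per cell therefore cannot be told apart in any value given here. Total counts per library lay between 22606824 and 28462428.

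One label conflict and several unequal libraries touch the results. The library labelled hp708 replicate 1 comes from animal 1602, which a supplementary source table of the study lists as hpCTL, and the log2 fold changes of the genes described in detail are given with and without it. Mir708, the precursor gene, had 0 counts in each library, so that overexpression could not be checked. Each of the 5 pan-neuronal markers was detected in each library, with a summed level of 4292 to 4795 CPM (reads scaled to library size) in hpCTL and 4061 to 4671 in hp708. Choroid plexus markers (5 of 5 detected) summed to 51.4 to 2048 CPM in hpCTL and 103 to 4372 in hp708. Oligodendrocyte markers (4 of 4) summed to 3512 to 4719 CPM in hpCTL and 3573 to 6641 in hp708, with the highest level in hp708 replicate 2. Subiculum markers (4 of 4) summed to 105 CPM in hpCTL replicate 1 and 160 to 196 in hpCTL replicates 2 to 4, and to 184 CPM in hp708 replicate 1 and 93.7 to 109 in hp708 replicates 2 to 4, so that the library with the label conflict stood apart from the rest of its group. Astrocyte markers (5 of 5) summed to 1578 to 1885 CPM in hpCTL and 1669 to 2464 in hp708. The highest sum was in hp708 replicate 4, where Gfap was at its highest (1250 CPM) and Gja1 at its lowest (154 CPM). Dentate granule cell markers (4 of 4) summed to 160 to 230 CPM in hpCTL and 166 to 312 in hp708, with the highest level in hp708 replicate 3. Interferon response genes (5 of 5) stood at 131 CPM in hpCTL replicate 1, 124 in hp708 replicate 1 and 150 in hp708 replicate 3, and at 276 to 345 in the other 5 libraries. The part of these in the results below was not tested.

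Sodium channels open within a fraction of a millisecond of depolarization and carry the rising phase of the action potential, which starts at the axon initial segment, where ankyrin-G and beta-IV spectrin hold them in place. Calcium channels turn depolarization into calcium entry: the P/Q-type and N-type channels trigger transmitter release, the L-type channels signal to the nucleus, and the T-type channels open near rest and support burst firing. A pore-forming subunit sets the type of the channel, while beta and alpha2delta subunits govern how many channels reach the membrane.

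A microRNA pairs with target transcripts through its seed, bases 2 to 8, so the mature sequence and the candidate sites in the channel genes are shown first. The mature sequence is from RefSeq and has its seed in capitals. The sites were searched in the longest annotated 3'UTR of each gene (GENCODE, GRCm39), on the transcribed strand, as AGCTCCTA (8mer), AGCTCCT (7mer-m8) or GCTCCTA (7mer-A1), each site counted once under its longest form. Each window of 22 bases ends with its site, in capitals. The windows shown are those of Cacna1i, the channel gene with the most sites, of Scn8a and Cacna1c, whose levels are described in detail below, of Fgf14, with the most paired bases among the channel genes, and of Nnat (neuronatin), the gene the study followed up as a target.
miR-708-5p: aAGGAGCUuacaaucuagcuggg
Cacna1i, 8mer, chr15:80282110-80282117, plus strand: aatatttctttgggAGCTCCTA
Cacna1i, 7mer-m8, chr15:80281747-80281753, plus strand: atgaaggaagctctgAGCTCCT
Cacna1i, 7mer-A1, chr15:80280244-80280250, plus strand: cttcacagcagagatGCTCCTA
Scn8a, 7mer-m8, chr15:100939974-100939980, plus strand: agaggggttgtcacaAGCTCCT
Scn8a, 7mer-m8, chr15:100941179-100941185, plus strand: tgaccctcctaccccAGCTCCT
Cacna1c, 7mer-A1, chr6:118567094-118567100, minus strand: tgacaaacccctactGCTCCTA
Fgf14, 7mer-m8, chr14:124214943-124214949, minus strand: gccaaagaaaattttAGCTCCT
Nnat, 7mer-m8, chr2:157404340-157404346, plus strand: cccagctagattgtaAGCTCCT

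Laid against the microRNA without gaps, the Nnat window paired at 22 of its 22 bases, the Fgf14 window at 14, the 8mer and the 7mer-m8 windows of Cacna1i at 11 each, and the Scn8a windows at 10 and 9. The Cacna1c window paired at 8. A seed match was found in 9 of the 33 channel genes (27.3%), namely Cacna1b, Cacna1c, Cacna1i, Cacna2d1, Cacna2d4, Fgf11, Fgf14, Scn4b and Scn8a, and in 3927 of the 14808 tested genes with an annotated 3'UTR (26.5%). Their share was thus close to that of all genes. The median length of the 3'UTR was 3727 bases for the channel genes with a site and 2377 for those without. The match is a description of the letters and not a measured site.

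In the fit over all genes, none of the 33 channel genes differed between hp708 and hpCTL at a false discovery rate (FDR) below 0.05 in the quasi-likelihood test of edgeR, fitted with 3 surrogate variables, a background of 1 gene in 17252 (0.0058%). At an unadjusted p below 0.05 there were 5 channel genes (15.2%), against 1328 of all tested genes (7.7%). These 5 were Ank3, Cacna1e, Cacna1a, Scn8a and Cacna1c, each higher in hp708, where 2.82% of all genes had such a p in this direction and 4.87% in the other. The lowest FDR among the members was 0.511, for Ank3, in the same test. Without surrogate variables 0 of the 33 had an unadjusted p below 0.05, against 1.81% of all genes. With DESeq2 there were 6 with the surrogate variables (5.02% of all genes) and 0 without them (1.84% of all genes), and in either case DESeq2 called 0 of them at an FDR below 0.05, against 0.556% and 0.0116% of all genes.

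The direction was the same for most members. The log2 fold change, hp708 minus hpCTL, was above 0 for 28 of the 33, beside 46.8% of all tested genes, and its median was 0.080 over the members and -0.009 over all genes. It ranged from -0.15 for Cacna2d4 to 0.23 for Scn9a, the pair with the lowest counts. The CPM of the groups overlapped for all 33, whereas they did not overlap for 1.51% of all tested genes, and in the exact permutation test over the libraries, whose smallest p is 0.0286, 0 of the 33 had a p below 0.05. These counts changed with the libraries and genes kept. With a floor of 10 counts per library, which all 33 passed, 18 were higher (49% of all genes) and 15 lower, and 2 had an unadjusted p below 0.05 (5.72% of all genes), Cacna1i and Fgf11, both lower in hp708 and neither among the 5. Without hpCTL replicate 1 there were also 18 higher (46.9% of all genes) and 15 lower, and 6 had an unadjusted p below 0.05 (9.67% of all genes), 2 of them higher (Ank3 and Cacna2d3) and 4 lower (Cacna1i, Cacnb4, Fgf11 and Fgf12). Without hp708 replicate 1 the median over the members was -0.004, 14 were higher (48.7% of all genes) and 19 lower, and 9 had an unadjusted p below 0.05 (27.3%, against 12.2% of all genes), 4 of them higher in hp708 (Cacna1a, Scn3b, Cacna2d3 and Cacna1h, against 5.44% of all genes) and 5 lower (Scn1a, Cacnb4, Fgf11, Fgf12 and Cacna1i, against 6.72%). The number was also 9 without hp708 replicate 2 (12% of all genes), 8 of them higher in hp708, and 1 without hpCTL replicate 3 (2.98% of all genes). Without hp708 replicate 1 and without surrogate variables, 22 were higher (48.9% of all genes) and 11 lower, with 0 at an unadjusted p below 0.05, against 3.42% of all genes.

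**Figure D1:**
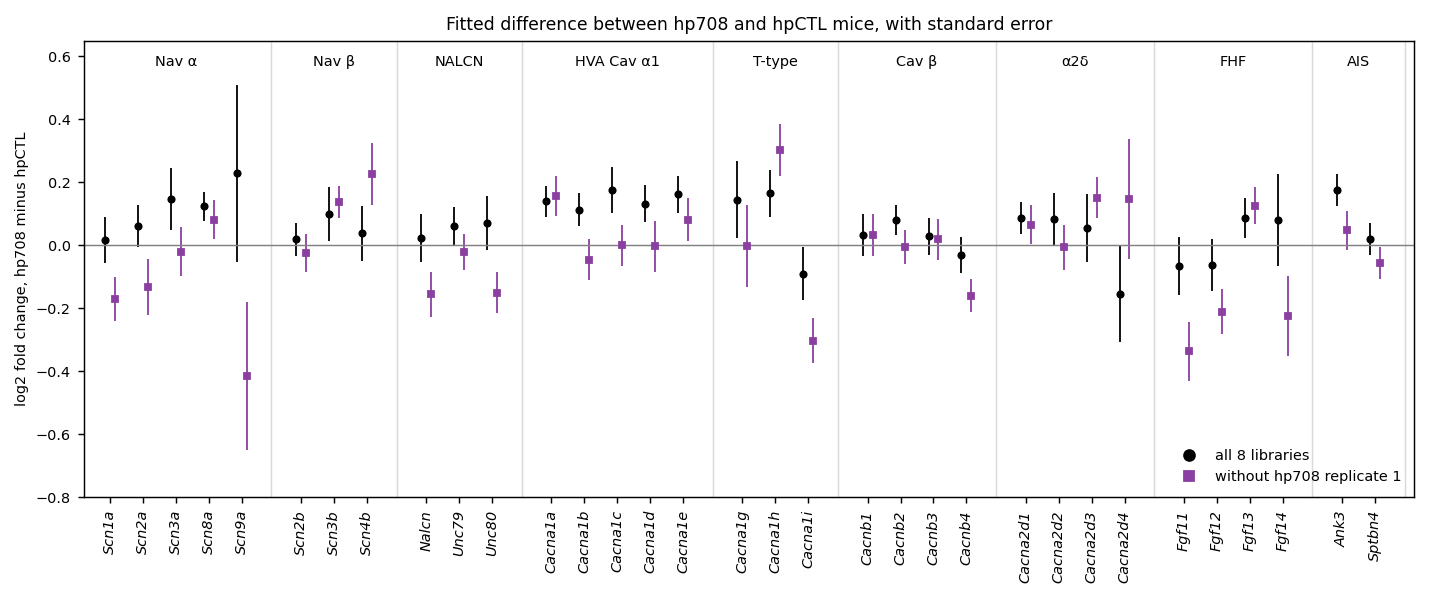
Log2 fold change of the 33 channel genes, hp708 minus hpCTL, from edgeR with 3 surrogate variables, in all 8 libraries (circles) and without hp708 replicate 1 (squares), with bars of 1 standard error, grouped by role (Nav, sodium channel; HVA Cav, high-voltage-activated calcium channel; Cav, calcium channel; FHF, fibroblast growth factor homologous factors; AIS, axon initial segment). With all libraries 28 genes lie above 0, and without hp708 replicate 1 there are 14.

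Among the sodium channel alpha subunits, Scn8a (ENSMUSG00000023033, chr15:100767739-100943819), the main channel of the mature axon initial segment and nodes of Ranvier, had the highest level per length. Its level was 23.8 ± 2.84 CPM per kb of merged exons (SD over the 8 libraries), followed by Scn2a, prominent in young excitatory axons, with 19.3 ± 2.92. Scn1a, which is prominent in inhibitory interneurons, had 7.84 ± 0.978, Scn3a, known from the embryonic brain, had 3.31 ± 0.588 and Scn9a, known from sensory neurons, had 0.182 ± 0.0594. As a share of the summed level per length of the 5 genes, Scn8a held 43.0% ± 1.76 in hpCTL and 44.5% ± 2.38 in hp708 (SD, n = 4 each), and Scn2a held 36.0% ± 0.896 and 34.8% ± 1.81. Scn8a stood above Scn2a in each of the 8 libraries, although their ranges over the libraries overlapped (19.8 to 27.9 and 14.9 to 23.4 CPM per kb).

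The CPM of Scn8a was 313, 370, 373 and 377 in hpCTL replicates 1 to 4 against 377, 322, 441 and 430 in hp708 replicates 1 to 4. The highest pair was in hp708, but hp708 replicate 2 lay below 3 of the hpCTL libraries, and hpCTL replicate 1 was the lowest of all. Its log2 fold change was 0.12 (SE 0.05, its standard error), with an unadjusted p of 0.0332 and an FDR of 0.613 in edgeR's quasi-likelihood test, and 0.08 without hp708 replicate 1. The exact permutation p was 0.257.
Scn2a was measured at 197, 268, 256 and 272 CPM in hpCTL against 269, 194, 305 and 250 in hp708, with a log2 fold change of 0.06 (SE 0.07), or -0.13 (0.09) without hp708 replicate 1. For Scn1a the CPM was 72.2, 106, 89.0 and 97.0 in hpCTL against 100, 78.8, 96.8 and 86.8 in hp708. Its log2 fold change was 0.02 with all libraries and -0.17 without hp708 replicate 1. Scn3a lay at 29.9 to 48.2 CPM in hpCTL and 38.0 to 57.2 in hp708. In these 3 genes hpCTL replicate 1 was the lowest hpCTL library and hp708 replicate 2 the lowest hp708 library, and the groups overlapped throughout. Scn9a had only 27 to 99 counts per library, and its highest and its lowest CPM (3.59 and 1.12) were both in hp708, in replicates 1 and 4.

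**Figure D2:**
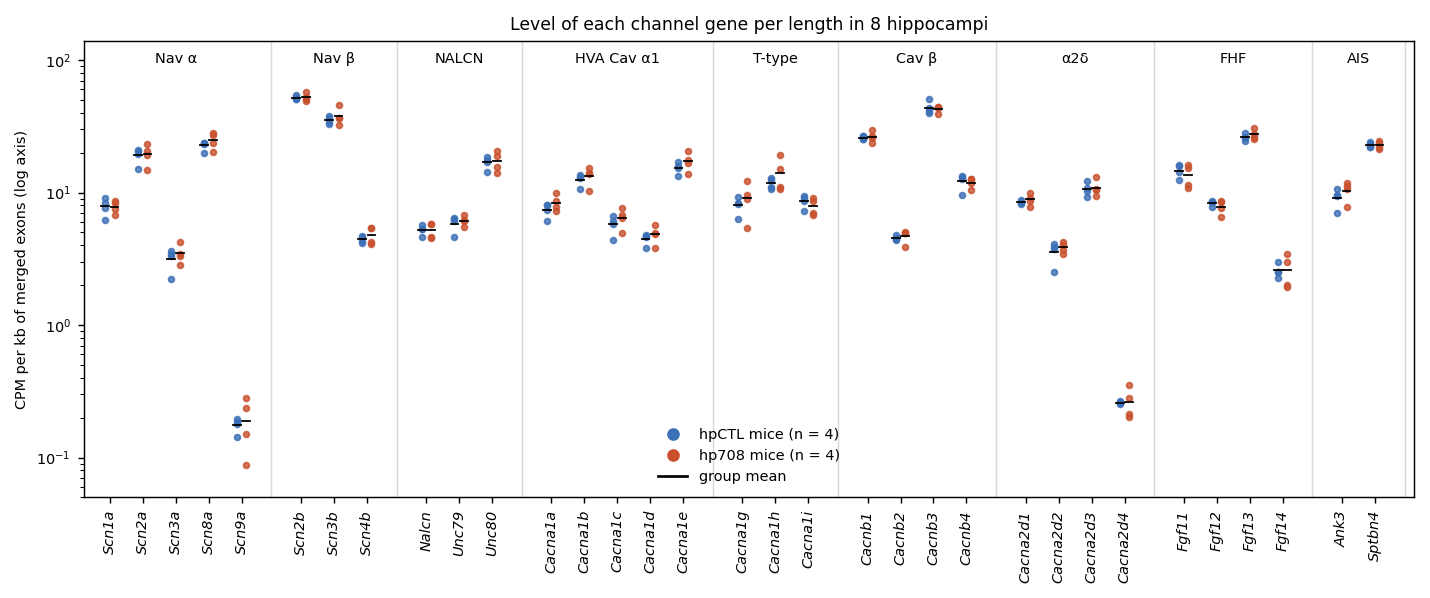
Level of each of the 33 channel genes in CPM per kb of merged exons (log axis), a point per library (hpCTL blue, hp708 orange, n = 4 each), with the group mean as a line, and genes grouped by role as in the plot of fold changes. The levels run from 0.182 for Scn9a to 52.2 for Scn2b (means over 8 libraries), and the points of the groups overlap for each gene.

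The sodium channel beta subunits are single-span membrane proteins that bind the alpha subunit and act as adhesion molecules. Scn2b (ENSMUSG00000070304, chr9:45029080-45041368), which is disulfide-linked to the alpha subunit, had the highest level per length of all 33 genes, 52.2 ± 2.65 CPM per kb (SD over the 8 libraries), whereas by the canonical transcript length the calcium channel subunit Cacnb3 came first with 88.1. The CPM of Scn2b was among the steadiest, with 235, 237, 253 and 245 in hpCTL against 245, 227, 266 and 236 in hp708. The difference was a log2 fold change of 0.02 (SE 0.05), or -0.02 (0.06) without hp708 replicate 1. Scn3b (ENSMUSG00000049281, chr9:40179378-40203052), a noncovalently bound subunit, was measured at 272, 262, 244 and 236 CPM in hpCTL against 233, 263, 329 and 263 in hp708. Only hp708 replicate 3 lay outside the hpCTL range on the high side, and hp708 replicate 1 was the lowest of the 8. The log2 fold change of Scn3b was 0.10 (SE 0.09, unadjusted p 0.277 in edgeR's quasi-likelihood test), or 0.14 (SE 0.05) without hp708 replicate 1. Scn4b, the subunit linked to resurgent current, ranged from 20.8 to 27.5 CPM, and its highest levels were in hp708 replicates 2 and 4. Scn2b held 55.9% of the summed level per length over all libraries and Scn3b 39.1%. With the length of the canonical transcript in place of merged exons, Scn3b came first with 51.1% and Scn2b second with 44.9%.

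The sodium leak channel Nalcn conducts a small inward current at rest and depends on the large partner proteins Unc79 and Unc80. Per length, Unc80 (ENSMUSG00000055567, chr1:66507072-66738307) had the highest level of the 3 with 17.1 ± 2.33 CPM per kb, against 5.99 ± 0.681 for Unc79 and 5.20 ± 0.535 for Nalcn (SD over the 8 libraries). Unc80 was measured at 214, 281, 264 and 258 CPM in hpCTL against 285, 212, 310 and 234 in hp708. Unc79 (ENSMUSG00000021198, chr12:102915118-103150487) was measured at 66.4, 90.5, 92.7 and 87.6 CPM in hpCTL against 87.7, 78.8, 98.5 and 89.8 in hp708. Again hpCTL replicate 1 and hp708 replicate 2 were the lowest libraries of their groups, and hp708 replicate 3 was the highest of all. The log2 fold change was 0.07 (SE 0.09) for Unc80, 0.06 (0.06) for Unc79 and 0.02 (0.08) for Nalcn. Without hp708 replicate 1 it was -0.150 (SE 0.065), -0.021 (0.057) and -0.155 (0.072). With the canonical transcript length Unc80 stayed first, and Nalcn, with 31.3% of the summed level in place of 18.4%, came before Unc79.

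Fibroblast growth factor homologous factors bind the cytoplasmic tail of the sodium channel alpha subunits and shift their inactivation. Fgf13 (ENSMUSG00000031137, chrX:58106279-58613431) led them with 26.9 ± 2.01 CPM per kb (SD over the 8 libraries), before Fgf11 with 14.1 ± 2.16, Fgf12 with 8.09 ± 0.724 and Fgf14 with 2.60 ± 0.530. The CPM of Fgf13 was 196, 181, 170 and 180 in hpCTL against 175, 184, 214 and 193 in hp708, and the log2 fold change was 0.09 (SE 0.06, FDR 0.791 in edgeR's quasi-likelihood test), or 0.13 (0.06) without hp708 replicate 1. Its groups overlapped, and it was not low in hpCTL replicate 1, which was the highest of the hpCTL libraries. Fgf11 and Fgf12 were picked with their values in view, as members with a negative log2 fold change. Fgf11 was measured at 37.9, 49.6, 43.8 and 48.4 CPM in hpCTL against 47.4, 33.5, 49.3 and 35.3 in hp708, and Fgf12 at 72.1, 79.2, 79.3 and 79.8 in hpCTL against 79.3, 70.7, 80.0 and 61.3 in hp708. In these genes hp708 replicates 2 and 4 were low, and hp708 replicates 1 and 3 were within or near the range of hpCTL replicates 2 to 4. The log2 fold change of both was -0.06, with standard errors of 0.09 and 0.08, and it was -0.34 and -0.21 without hp708 replicate 1. Of the merged exons of Fgf14, 51.5% overlap those of Itgbl1 on the opposite strand. Because the strand setting of the counting is not given in the sources used here, reads of the pair cannot be told apart, and Itgbl1 stood at 3.06 to 8.18 CPM beside 16.1 to 29.0 CPM for Fgf14.

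The scaffold genes of the axon initial segment were Ank3, which encodes ankyrin-G, and Sptbn4, which encodes beta-IV spectrin. Ank3 (ENSMUSG00000069601, chr10:69234603-69863268) had the lowest unadjusted p of the 33 genes. Its CPM was 256, 344, 390 and 353 in hpCTL against 391, 287, 431 and 407 in hp708. In 3 of the 4 hp708 libraries it was above each hpCTL library, with hp708 replicate 1 just above the highest of them, while hp708 replicate 2 was below 3 of the hpCTL libraries. Between the groups Ank3 differed by 0.18 on the log2 scale (SE 0.05), with an unadjusted p of 0.0101 and an FDR of 0.511 in edgeR's quasi-likelihood test, and 0.05 without hp708 replicate 1. The exact permutation p was 0.371. Sptbn4 (ENSMUSG00000011751, chr7:27055808-27147111) hardly varied, with 213, 229, 224 and 210 CPM in hpCTL against 233, 205, 225 and 213 in hp708, and a log2 fold change of 0.02 (SE 0.05), or -0.06 (0.05) without hp708 replicate 1. Per length Sptbn4 held 70.3% of the pair's summed level, and with the length of the canonical transcript Ank3 held the larger share, 58.5%, since the merged exons of Ank3 span 36572 bases and its canonical transcript 9963.

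The high-voltage-activated alpha1 subunits were higher in hp708 for 5 of 5 genes, beside 46.8% of all genes, and 3 of the 5 had an unadjusted p below 0.05 in this direction, beside 2.82%, with 0 at an FDR below 0.05. Their median log2 fold change was 0.14, and it ranged from 0.11 to 0.18. Without hp708 replicate 1 the values were 0.16 for Cacna1a, 0.08 for Cacna1e, 0.00 for Cacna1c, -0.00 for Cacna1d and -0.05 for Cacna1b. In that fit 1 of the 5, Cacna1a, kept an unadjusted p below 0.05, against 12.2% of all genes, or 5.44% higher in hp708. Cacna1e (ENSMUSG00000004110, chr1:154266477-154760247), the pore of the R-type channel, had the highest level per length, 16.3 ± 2.27 CPM per kb (SD over the 8 libraries). It was followed by Cacna1b (N-type) with 12.9 ± 1.76, Cacna1a (P/Q-type) with 7.92 ± 1.11, Cacna1c (L-type) with 6.11 ± 1.04 and Cacna1d (L-type) with 4.66 ± 0.611. With the canonical transcript length Cacna1e kept the first place and Cacna1c moved to the second, with 23.2% of the summed level in place of 12.7%. The order of the genes behind Cacna1e thus depends on the length used.

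Cacna1e was measured at 343, 395, 436 and 406 CPM in hpCTL against 429, 353, 525 and 455 in hp708. The highest pair was in hp708 replicates 3 and 4, and hp708 replicate 2 lay among the lowest. On the log2 scale hp708 minus hpCTL was 0.16 (SE 0.06), with an unadjusted p of 0.0253 and an FDR of 0.594 in edgeR's quasi-likelihood test, and it was 0.08 (SE 0.07, unadjusted p 0.265) without hp708 replicate 1. The exact permutation p was 0.314.
Cacna1c (ENSMUSG00000051331, chr6:118564201-119173851), the gene whose heterozygous rats the study uses as a genetic model, was measured at 97.7, 137, 150 and 130 CPM in hpCTL against 151, 111, 170 and 144 in hp708. Here too hpCTL replicate 1 and hp708 replicate 2 were low and hp708 replicate 3 was the highest. Cacna1c had a log2 fold change of 0.18 (SE 0.07), with an unadjusted p of 0.0468 and an FDR of 0.646 in edgeR's quasi-likelihood test, and 0.00 without hp708 replicate 1.
Cacna1a, picked with its values in view because its unadjusted p was below 0.05, had 117, 155, 153 and 141 CPM in hpCTL against 149, 138, 166 and 190 in hp708. Its log2 fold change was 0.14 (SE 0.05), with an unadjusted p of 0.0264 and an FDR of 0.594 in edgeR's quasi-likelihood test. It was 0.16 without hp708 replicate 1 and 0.07 without hp708 replicate 4, the library with the highest level. Cacna1b, with 102 to 154 CPM, and Cacna1d, with 57.9 to 86.3 CPM, had log2 fold changes of 0.11 (SE 0.05) and 0.13 (SE 0.06) with all libraries. Of the merged exons of Cacna1d, 9.72% overlap those of Chdh on the opposite strand, which stood at 4.65 to 13.0 CPM.

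Of the T-type alpha1 subunits, 2 had a positive and 1 a negative log2 fold change. Cacna1h (ENSMUSG00000024112, chr17:25593259-25652764), the first of them per length with 12.9 ± 3.02 CPM per kb (SD over the 8 libraries), was measured at 116, 137, 141 and 120 CPM in hpCTL against 121, 117, 166 and 212 in hp708. Within hp708 its level in replicate 4 was far above that in replicates 1 and 2, which lay within the hpCTL range. The log2 fold change was 0.17 (SE 0.08, FDR 0.680 in edgeR's quasi-likelihood test), 0.30 without hp708 replicate 1 and 0.04 without hp708 replicate 4. Cacna1g had 65.9, 96.5, 85.2 and 86.8 CPM in hpCTL against 98.8, 56.2, 92.6 and 126 in hp708, so that its lowest and its highest level were both in hp708, in replicates 2 and 4. Cacna1i, which carries 3 seed matches, had 71.3, 93.5, 85.5 and 89.3 CPM in hpCTL against 85.8, 66.3, 90.1 and 69.1 in hp708. Its groups overlapped, hp708 replicates 2 and 4 being the lowest and hpCTL replicate 1 close to them. For Cacna1i the log2 fold change was -0.09 (SE 0.08, FDR 0.849 in edgeR's quasi-likelihood test), and it was negative in each alternative fit, from -0.30 without hp708 replicate 1 to -0.01 without hpCTL replicate 2. Cacna1g and Cacna1i were picked with their values in view.

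The makeup of the T-type group had a wider spread among the hp708 than among the hpCTL libraries, which was not tested. Cacna1h held 41.4% ± 2.53 of the summed level per length in hpCTL and 45.0% ± 5.32 in hp708, and Cacna1i 30.3% ± 1.15 and 26.2% ± 5.43 (SD, n = 4 each). The share of Cacna1i was between 27.5% and 31.9% in 7 libraries and 18.2% in hp708 replicate 4. That library also had the highest summed astrocyte markers (2464 CPM, against 1578 to 1997 in the other 7), but the markers did not move together. Gfap (1250 CPM), Aqp4 (227) and Aldh1l1 (60.8) were highest there, Gja1 (154) was lowest there, and Slc1a3 (772) lay within the range of the other 7. Their part in the share of Cacna1i was not tested. In the other 8 groups, too, the share of each subunit overlapped between hpCTL and hp708.

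**Figure D3:**
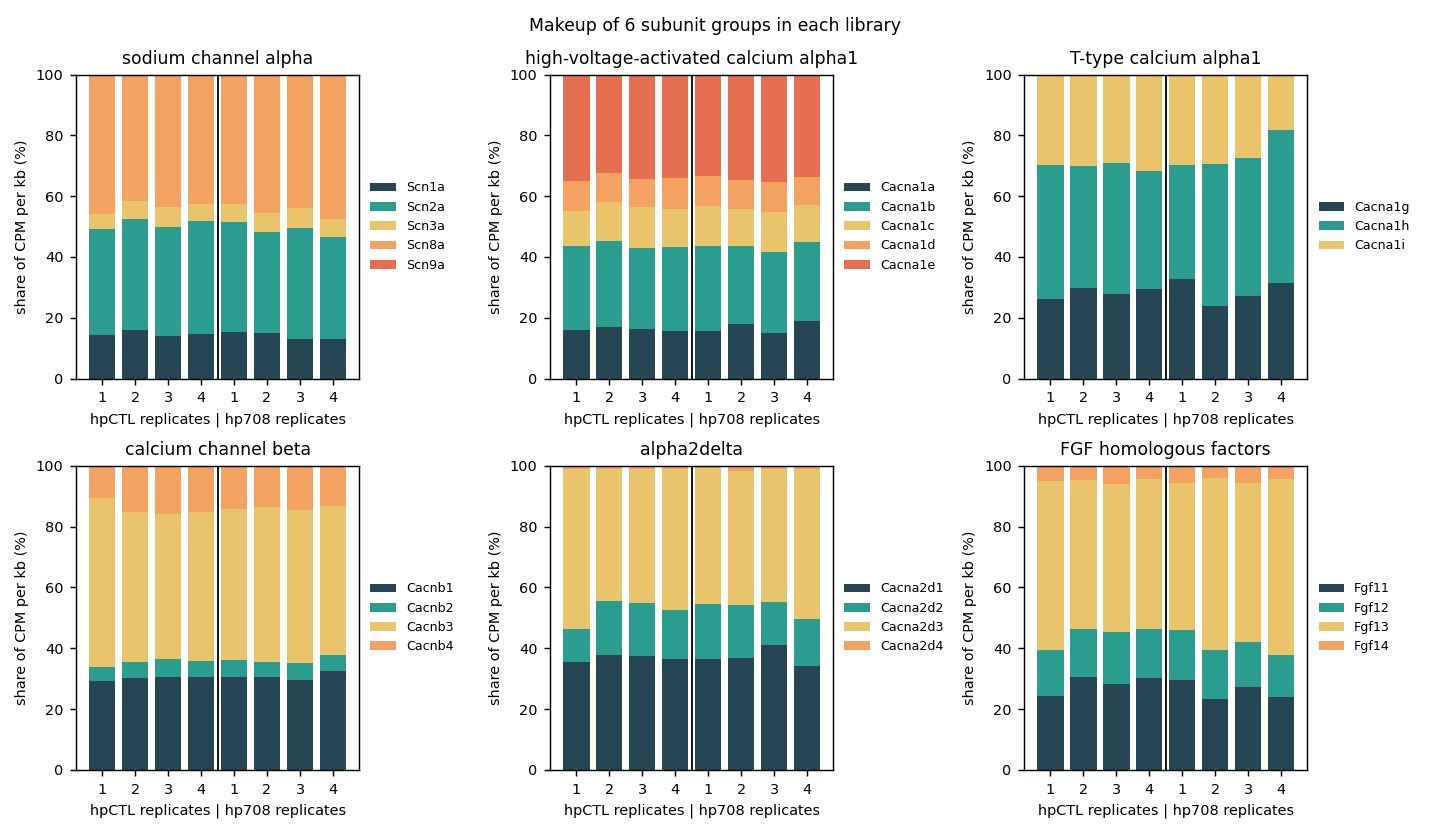
Share (%) of each subunit in the summed CPM per kb of merged exons of its group, for 6 of the 9 role groups, with a stacked bar per library and a line between the 4 hpCTL and 4 hp708 libraries. The shares stay close from library to library except in a few bars, such as hp708 replicate 4 of the T-type group, where Cacna1i is at 18.2%, and hpCTL replicate 1 of the calcium channel beta group, where Cacnb4 is at 10.5%.

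The calcium channel beta subunits sit on the cytoplasmic side of the pore and carry it to the membrane. Cacnb3 (ENSMUSG00000003352, chr15:98528721-98542417) had the highest level per length of the 4, 43.3 ± 3.71 CPM per kb, before Cacnb1 with 26.2 ± 1.73, Cacnb4 with 12.0 ± 1.32 and Cacnb2 with 4.62 ± 0.397 (SD over the 8 libraries). Their order was the same with the canonical transcript length. The CPM of Cacnb3 was 256, 219, 200 and 207 in hpCTL against 220, 196, 225 and 225 in hp708, with the highest level in hpCTL replicate 1. Cacnb2 (ENSMUSG00000057914, chr2:14607899-14994127), singled out by the lowest unadjusted p of the 4, had 65.1, 66.9, 69.8 and 63.9 CPM in hpCTL against 72.6, 56.4, 74.0 and 72.1 in hp708. Except for replicate 2, each hp708 library was above each hpCTL library, and replicate 2 was below all of them. On the log2 scale the difference was 0.08 (SE 0.05, FDR 0.744 in edgeR's quasi-likelihood test) for Cacnb2 and 0.03 (0.06, FDR 0.938) for Cacnb3. Without hp708 replicate 1 it was -0.00 (0.05) and 0.02 (0.07). Cacnb4 ranged from 87.5 to 122 CPM, and A430018G15Rik, which overlaps 15.7% of its merged exons on the opposite strand, stood at 0.682 to 1.43 CPM.

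The alpha2delta subunits are extracellular proteins that raise the number of channels at the membrane, and Cacna2d1 and Cacna2d2 are the binding sites of gabapentin. Cacna2d3 (ENSMUSG00000021991, chr14:28626892-29444600) held 46.4% ± 4.31 of the summed level per length in hpCTL and 45.4% ± 2.58 in hp708, and Cacna2d1 (ENSMUSG00000040118, chr5:16139372-16579509) 36.9% ± 1.00 and 37.2% ± 2.90 (SD, n = 4 each). With the canonical transcript length Cacna2d1 came first with 45.3% over all libraries and Cacna2d3 second with 44.5%. The CPM of Cacna2d1 was 183, 180, 193 and 188 in hpCTL against 190, 173, 221 and 200 in hp708, with a log2 fold change of 0.09 (SE 0.05, FDR 0.740 in edgeR's quasi-likelihood test), or 0.07 (0.06) without hp708 replicate 1. Cacna2d3 was measured at 124, 94.0, 104 and 109 CPM in hpCTL against 106, 95.1, 108 and 132 in hp708. For Cacna2d3, hpCTL replicate 1 was the highest of its group and hp708 replicate 4 the highest of all, and the log2 fold change was 0.06 (SE 0.11), or 0.15 (0.06) without hp708 replicate 1. Cacna2d2, at 19.9 CPM in hpCTL replicate 1 and 27.1 to 33.9 in the other 7 libraries, and Cacna2d4, at 1.92 to 3.35 CPM, had the lowest levels of the group.

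Across the roles, the same libraries stood at the extremes. Among the hpCTL libraries, replicate 1 was the lowest for 22 of the 33 genes (66.7%), beside 37.6% of all tested genes. Among the hp708 libraries, replicate 2 was the lowest for 26 (78.8%), beside 30% of all tested genes, and replicate 3 the highest for 20 (60.6%), beside 22.8%. The median deviation of the members from their mean log2 CPM over the 8 libraries was -0.178, 0.026, 0.038 and 0.005 in hpCTL replicates 1 to 4 and 0.086, -0.195, 0.196 and 0.063 in hp708 replicates 1 to 4. These medians spread more widely within each group than the groups lay apart.

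**Figure D4:**
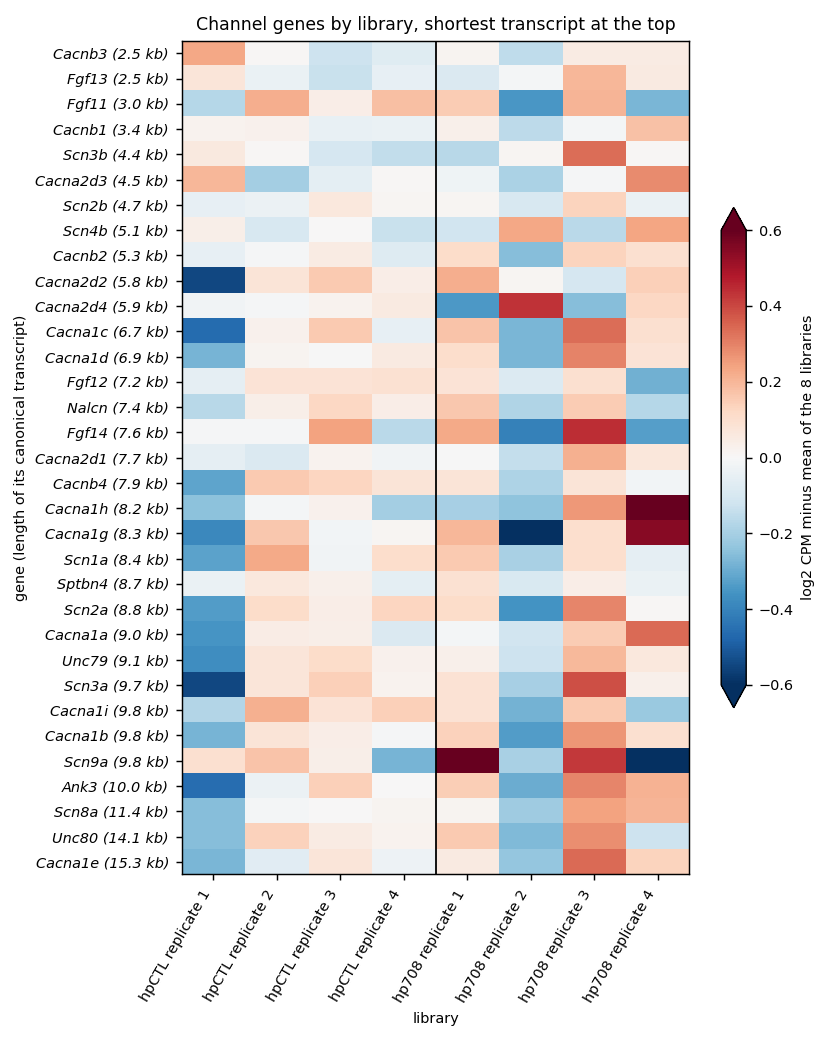
Log2 CPM of the 33 channel genes (rows, from the shortest canonical transcript at the top to the longest at the bottom) minus the gene's mean over the 8 libraries (columns), with colours capped at 0.6 in either direction. The columns of hpCTL replicate 1 and hp708 replicate 2 are mostly blue and that of hp708 replicate 3 mostly red, with medians of -0.178, -0.195 and 0.196.

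The transcripts of the channel genes are long, and length moved with these library differences. The median length of the canonical transcript was 7732 bases for the 33 genes and 3182 for all tested genes. Over the other tested genes, the median deviation of hpCTL replicate 1 was 0.136 for transcripts under 1 kb, 0.182 for those of 1 to 2 kb and -0.249 for those of 8 kb or more, and that of hp708 replicate 2 was 0.085, 0.059 and -0.120. In hp708 replicate 3 it went the other way, with -0.060, -0.076 and 0.135. The 22 channel genes of at least 6 kb had medians of -0.276 in hpCTL replicate 1, -0.221 in hp708 replicate 2 and 0.251 in hp708 replicate 3. For the 11 shorter channel genes these medians were 0.023, -0.096 and 0.048. In an alternative fit chosen after seeing the data, the median deviation of other transcripts of 8 kb or more in each library replaced the surrogate variables. This covariate holds whatever long transcripts share in a library. The part of length itself in the fold changes cannot be told apart from that and was not tested. In that fit 20 of the members were higher (47.7% of all genes) and 13 lower, the median was 0.018, the log2 fold change was 0.05 for Ank3, 0.06 for Scn8a, 0.07 for Cacna1e, 0.04 for Cacna1c, 0.12 for Cacna1a and 0.19 for Cacna1h, and 1 member, Cacna1i, had an unadjusted p below 0.05, with a log2 fold change of -0.21, against 2.54% of all genes. The fit without surrogate variables and without that covariate gave 26 higher (47.1% of all genes) and 7 lower, with a median of 0.074. Leaving out hpCTL replicate 1 and hp708 replicate 2, without surrogate variables, gave 26 higher (48.4% of all genes) and 7 lower with a median of 0.101, and 2 members, Ank3 and Cacnb2, had an unadjusted p below 0.05, against 4.34% of all genes.

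**Figure D5:**
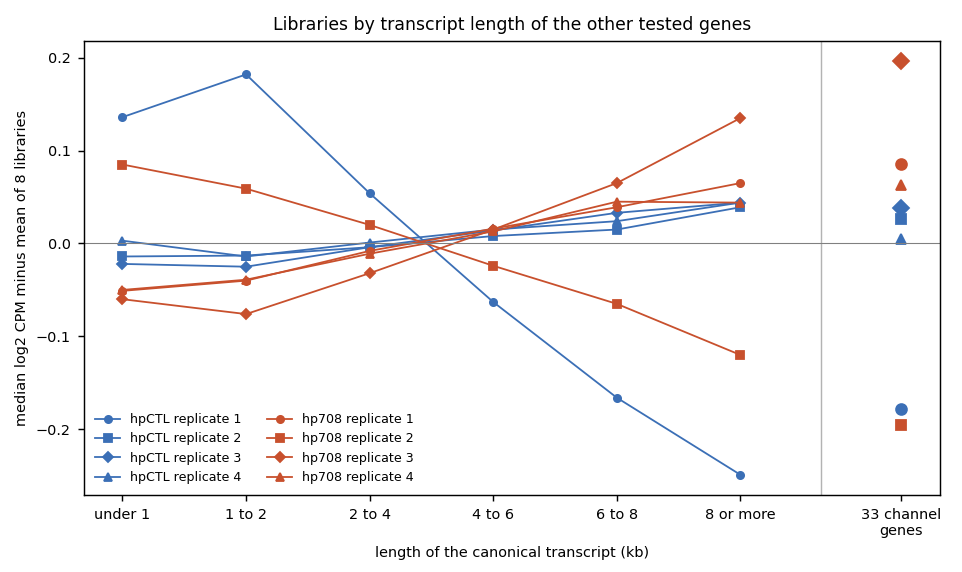
Median log2 CPM deviation of each library from the mean of the 8 libraries (vertical axis) for the other tested genes, by length of the canonical transcript in kb (horizontal axis), and for the 33 channel genes at the right (hpCTL blue, hp708 orange). From the bin of 1 to 2 kb on, the lines of hpCTL replicate 1 and hp708 replicate 2 fall with length and that of hp708 replicate 3 climbs, and the channel genes of these libraries lie at -0.178, -0.195 and 0.196.

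By seed match, in the fit with all libraries, the channel genes had the same median and a different split by direction, which was not tested. Of the 9 with a match, 3 were lower and 6 higher in hp708, the median of their log2 fold changes being 0.08, and the 24 without a match also had a median of 0.08, with 2 lower and 22 higher. Over all tested genes the medians were 0.00 with a match, where 1943 were lower and 1984 higher, and -0.01 without, where 6032 were lower and 4849 higher. The 3 that were lower were Cacna1i, Cacna2d4 and Fgf11. Scn8a, with 2 matches, and Cacna1c, with 1, were among the 5 members at an unadjusted p below 0.05 and higher in hp708. The split did not hold without hp708 replicate 1, where 14 of the 33 members were higher (48.7% of all genes) and 19 lower. Among the genes with a match, Cacna1b (-0.05) and Fgf14 (-0.22) were then lower and Cacna2d4 (0.15) higher. Most of the genes without a match were then lower. Nnat itself, whose window is shown above, had 352, 315, 260 and 282 CPM in hpCTL against 310, 210, 280 and 156 in hp708. The lowest pair was in hp708, in replicates 2 and 4, and the groups overlapped. Its log2 fold change was -0.21 (SE 0.12, FDR 0.735 in edgeR's quasi-likelihood test), and -0.58 with an FDR of 0.0461 without hp708 replicate 1, the library with the label conflict. Without that library and without surrogate variables it was -0.49, and the FDR from the same test was 0.999. The study itself reported Nnat among the downregulated genes of this comparison, by its own thresholds. By qPCR it also found lower Nnat in hippocampus and in cultured rat neurons. In those neurons the protein was lower too, and a reporter with the Nnat 3'UTR was repressed unless its site was mutated.

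Other genes of the channel complexes, the calcium channel release sites and the axon initial segment formed a second list of 31, of which 25 passed the filter. Among these, 18 were higher and 7 lower in hp708, 0 had an FDR below 0.05 in edgeR's quasi-likelihood test, and 3 had an unadjusted p below 0.05, beside 46.8% of all genes higher and 7.7% at such a p. The lowest p was that of Cacna1s, the alpha1 subunit of the skeletal muscle channel, which is scarce in brain. It was measured at 1.96, 1.84, 2.99 and 2.48 CPM in hpCTL against 0.979, 1.48, 1.41 and 1.86 in hp708, from 27 to 73 counts per library. The lowest 3 libraries were all in hp708, and its replicate 4 lay just above the lowest hpCTL library. hp708 minus hpCTL on the log2 scale was -0.87 (SE 0.21), with an unadjusted p of 0.00455 and an FDR of 0.443 in edgeR's quasi-likelihood test, and -0.50 without hp708 replicate 1. On the higher side were Nfasc, which encodes the adhesion molecule neurofascin of the axon initial segment, and Ank2, which encodes ankyrin-B of the distal axon. Nfasc was measured at 247, 298, 343 and 321 CPM in hpCTL against 340, 308, 334 and 410 in hp708, and its log2 fold change was 0.16 (SE 0.06, FDR 0.620). Ank2 had a log2 fold change of 0.11 (SE 0.04, FDR 0.645). Without hp708 replicate 1 it was 0.19 for Nfasc and -0.00 for Ank2.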

How the data were processed

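TruSeq mRNA libraries of hippocampal RNA covered 4 hpCTL and 4 hp708 mice. The values are raw counts per gene, which the authors made with STAR 2.7.8a on GRCm39 and featureCounts 1.6.4 (versions from the submitters' processing notes) and deposited with no scaling. Whether counting used strand or multi-mapping reads is not given in the sources used here. Of 40659 genes, 39637 were named by GENCODE vM39, and the authors used vM26. Samples were grouped by their labels. p-values measure the spread between these libraries, 1 per animal, and in fits with surrogate variables only what is left after them. Those variables were estimated from the same libraries. For Ank3 the standard error was 0.05 in the main fit and 0.15 without surrogate variables. Same-numbered libraries did not deviate together (correlations of -0.041 to 0.018).

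From the deposited counts, genes were kept by filterByExpr and tested over all genes with edgeR 4.0.16 (TMM, quasi-likelihood fitted as in edgeR 3) in R 4.3.3, with 3 surrogate variables (svaseq of sva 3.50.0), adjusting p by Benjamini-Hochberg. DESeq2 1.42.0 was an alternative. A prior count of 2 entered log2 CPM. The standard error is the log2 fold change divided by the root of F. Single genes were compared by the exact two-sided permutation test over all 70 assignments. The functions were tested on simulated data. Merged exon length and, alternatively, canonical transcript length were from GENCODE. Alternatives changed the surrogate variables, test, tool, normalization, filter, replicate block and libraries.

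The members and lists were chosen with earlier results of these data known. The genes described in detail are, in each role group, the member with the lowest unadjusted p and that with the highest level per length, together with members called, not overlapping or removed by the filter (none), and Cacna1c. Others were picked with their values in view.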

Additional observations from a re-analysis of the deposited data

Results flagged for a closer look

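In 7 of the 134 groups of 4 libraries examined, 1 library stood apart by Dixon's test, where chance gives 6.7 (5%). Scn8a stood at 313 CPM in hpCTL replicate 1, with the rest of its group at 370 to 377, and Fgf12 at 72.1 CPM in the same library, with the rest at 79.2 to 79.8. In hp708 replicate 2, Cacnb2 stood at 56.4 CPM with the rest of the group at 72.1 to 74.0, and Cacnb3 at 196 CPM beside 220 to 225. As a share of the level per length of its group, Cacnb4 held 10.5% in hpCTL replicate 1, with the rest at 15.1% to 15.8%. The share of Fgf13 was 55.5% in hpCTL replicate 1, beside 48.6% to 49.3%, and that of Cacna2d3 was 49.3% in hp708 replicate 4, beside 43.8% to 44.5%. Of the 7, 4 are in hpCTL replicate 1 and 2 in hp708 replicate 2. The cause was not tested.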

How the results depend on the processing

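The 33 members gave 0 calls at an FDR below 0.05 in each of the 22 alternative fits. Over all genes the number of calls was 0 without, with 1 and with 2 surrogate variables, with a floor of 10 counts per library, with surrogate variables from scaled counts and with the long-transcript covariate, 2 with DESeq2 without surrogate variables, 12 without a filter, 127 with the likelihood ratio test, and DESeq2 with 3 surrogate variables called 96. Members at an unadjusted p below 0.05 numbered 0 without surrogate variables (1.81% of all genes), with 1 (3.44%) and with 2 (4.1%). They also numbered 0 with DESeq2 without surrogate variables (1.84%) and with the replicate block (1.58%). The long-transcript covariate gave 1 (2.54%). A floor of 10 counts per library gave 2 (5.72%), both lower in hp708, with 18 members higher (49% of all genes) and 15 lower. Surrogate variables from scaled counts gave 10, against 13.3% of all genes. Among these fits, which keep all libraries, the lowest median of the members was 0.018, with the long-transcript covariate. The replicate block replaced the surrogate variables, since both together leave 0 residual degrees of freedom. The fits with scaled counts and with the long-transcript covariate, and the fit without hpCTL replicate 1 and hp708 replicate 2, were chosen after seeing the data. When libraries were left out, calls over all genes ranged from 0 to 56, members at an unadjusted p below 0.05 from 0 to 9 and the median of the members from -0.004 to 0.111.

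Of the log2 fold changes of 36 genes, 389 values from alternatives that keep all libraries had the main sign and 43 the opposite one. Opposite were Scn1a (-0.00), Nalcn (-0.01), Cacnb3 (-0.02) and Cacna2d4 (0.01) without surrogate variables, Scn1a (-0.00), Nalcn (-0.01), Cacnb3 (-0.01) and Fgf14 (-0.01) with 1, and Scn1a (-0.00) and Nalcn (-0.01) with 2. DESeq2 without them gave Nalcn (-0.00), Cacnb3 (-0.02) and Cacna2d4 (0.01), no filter gave Cacnb4 (0.02), the replicate block gave Nalcn (-0.02), Cacnb3 (-0.02) and Fgf14 (-0.03), and surrogate variables from scaled counts gave Scn1a (-0.01), Scn9a (-0.02), Nalcn (-0.02) and Fgf14 (-0.00). The floor of 10 counts per library gave Scn1a (-0.12), Scn2a (-0.10), Scn3a (-0.03), Scn9a (-0.25), Scn2b (-0.02), Nalcn (-0.11), Unc79 (-0.03), Unc80 (-0.12), Cacna1b (-0.01), Cacna2d4 (0.06), Fgf14 (-0.17) and Sptbn4 (-0.04). The long-transcript covariate gave Scn1a (-0.08), Scn2a (-0.08), Scn2b (-0.02), Nalcn (-0.07), Unc79 (-0.00), Unc80 (-0.06), Cacna1b (-0.01), Cacna2d4 (0.05), Fgf14 (-0.09) and Sptbn4 (-0.02). The cause was not tested.

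With libraries left out, 60 values had the opposite sign and 299 the same, and 1, Nnat without hp708 replicate 1, newly passed the threshold. The ranges were -0.17 to 0.13 for Scn1a, -0.13 to 0.14 for Scn2a, -0.02 to 0.23 for Scn3a, -0.41 to 0.47 for Scn9a, -0.02 to 0.04 for Scn2b, -0.01 to 0.17 for Scn3b, -0.02 to 0.23 for Scn4b, -0.15 to 0.07 for Nalcn, -0.03 to 0.12 for Unc79, -0.15 to 0.15 for Unc80, -0.05 to 0.18 for Cacna1b, -0.00 to 0.18 for Cacna1d, -0.00 to 0.31 for Cacna1g, -0.00 to 0.12 for Cacnb2, -0.03 to 0.10 for Cacnb3, -0.16 to 0.04 for Cacnb4, -0.01 to 0.16 for Cacna2d2, -0.01 to 0.19 for Cacna2d3, -0.22 to 0.15 for Cacna2d4, -0.34 to 0.02 for Fgf11, -0.22 to 0.20 for Fgf14, -0.06 to 0.05 for Sptbn4 and -0.58 to -0.06 for Nnat. Scn9a and Cacna2d4 had the lowest counts of the members, under 100 per library, and the part of depth in their ranges was not tested.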
